A study of Mus musculus with 21 samples.

Results

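Mesenchymal cells that had taken up a red label from nearby human leukemic cells (ch+) were compared with cells of the same Nes^low sort that carried none (ch–), at the early stage of leukemia in mice. The libraries were chosen by their labels, as every library marked early and cherry positive and every library marked early and cherry negative. They are 12 of the 21 libraries of the series, 6 ch+ and 6 ch–. In each group 3 libraries had HL60 as the leukemia and 3 had ML1, so the comparison could be made over both lines and within each of them.

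All mice were Nestin+ NSG animals, an immunodeficient strain without mature lymphocytes, with a green reporter driven by Nestin regulatory sequences. They received human acute myeloid leukemia (AML) cells without conditioning at an age of 8 to 12 weeks. HL60 and ML1 are established human AML lines, which in this experiment secreted a lipid-permeable mCherry protein that neighboring cells take up. The ch+ group is thus early, engrafted and cherry positive, and the ch– group early, engrafted and cherry negative, with the same strain, leukemic lines and sort. A further 3 libraries from unengrafted mice of the strain, sorted with no cherry marker (ctrl), are quoted as a reference level, and the 6 late libraries entered only the filter on low values and an alternative fit with all 21 libraries. The model has limits: the host lacks lymphocytes, each leukemia is 1 cell line and not patient material, and the label records uptake of a protein and not a measured distance. The study took ch– cells from the same marrow as ch+ cells. No label tells which libraries share an animal or whether animals were pooled, so libraries were treated as independent except in an alternative with assumed pairs, and p-values measure the spread between libraries, which may in part be technical.

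Stroma of the bone marrow is a mixture of related cells. Reticular cells with the leptin receptor make Cxcl12 and stem cell factor, which hold blood stem cells in their niche, while pericytes and smooth muscle cells wrap the vessels, osteoblasts lay down bone and chondrocytes build the cartilage of growth plates and joints. A cell that leukemic cells lie next to exchanges membrane, proteins and signals with them, and the secreted label was designed to mark the cells within its reach.

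The values are the authors' regularized log2 values, in which a step of 1 is a doubling. Summed on the linear scale, in units of 1e6 normalized counts, a library held 11.21, 12.4 and 12.65 in ch+ (lowest, median and highest of 6) and 12.26, 13.7 and 14.74 in ch–. The ch– totals were mostly the higher ones, with 1 ch– library (replicate 527) inside the ch+ range. The ribosomal RNA gene CT010467.1 took 26.5% to 31.7% of the total in ch+ and 30.8% to 38.7% in ch–, so that the groups differed in this share too, and the part of that share in the results was not tested. The read depth of each library is unknown, since the deposited values hold no counts. In a principal component analysis of the tested genes, the first component held 21.1% of the variance and separated the groups without overlap, from 17.68 to 35.38 in ch+ and from −36.72 to −13.97 in ch–. Furthest from the others were ch– replicate 543 at 53.46 on the second component and ch+ replicate 541 at 51.90 on the third. On the fourth, ch+ replicates 539 (−45.18) and 523 (29.37) lay apart, in opposite directions.

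The sort was checked against its own markers. Nes, the gene of the sorting reporter, lay at 6.61, 7.30 and 7.65 in ch+ and at 7.01, 7.41 and 7.57 in ch–, and the groups overlapped (log2 fold change −0.02 ± 0.22, adjusted p = 0.981). Ptprc, the pan-leukocyte antigen CD45, ranged from 3.81 to 5.58 in ch+ and from 2.67 to 5.92 in ch–, with an adjusted p of 0.588. Pecam1, the endothelial antigen CD31, was at 5.31 to 6.21 and 4.87 to 5.93. The extraction protocol in the labels speaks of endothelial cells sorted for CD31, whereas the source field names Nes^low mesenchymal cells. Per kilobase of exon, Pecam1 was at 3.10 in ch+ and 2.90 in ch–, against 8.83 and 8.71 for the mesenchymal receptor gene Pdgfrb. Cspg4 (NG2), a marker of pericytes, was at 9.57 to 9.89 in ch+ and 9.64 to 10.51 in ch–. Its adjusted p of 0.137 did not pass, though without ch– replicate 529 it came to 0.0955 (log2 fold change −0.42) and without ch– replicate 546 to 0.0392 (−0.47). Xist, the long RNA of the inactive X chromosome, lay at 13.61, 13.70 and 13.79 in ch+ and at 13.68, 13.87 and 13.95 in ch–. No library stood out by this gene, though the ch+ median was the lower one (log2 fold change −0.14, not called). The Y-linked Ddx3y, Kdm5d, Eif2s3y and Uty were at 2.35 or below. Kdm5d was at 2.35 in ch+ replicate 538, apart from the other ch+ libraries (1.49 to 1.69).

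Of 26852 genes, 12980 with a mean of at least about 10 normalized counts over the series were tested with limma on 12 libraries, with cell line as a term, and a gene is called at a Benjamini-Hochberg adjusted p under 0.1. The two-sided test called 912 genes (7.03% of those tested), of which 480 were higher in ch+ (3.7%) and 432 lower (3.33%). The called genes had a median absolute log2 fold change of 0.91. Among them 41 rose by at least 2 on the log2 scale and 53 fell by at least 2. In 373 called genes (2.87% of those tested) no ch+ library fell within the range of the ch– libraries, with 213 of these genes higher in ch+ and 160 lower. Rescaling each library to the same total gave 1158 called genes with 77.4% of them higher, against 52.6% as deposited. Under that rescaling the median over all tested genes shifted from −0.02 to 0.13, and the split between higher and lower moved with it. The higher share was 51.9% after quantile normalization and 54.7% with libraries centered on their medians. With the level of Xist as a further term 307 genes were called, with no filter on low values 579 of 26852, and with a fold of at least 1 log2 unit as a second condition 394. Because the median Xist level differed between ch+ and ch–, the Xist term overlaps in part with the marker. The count of 307 cannot tell the 2 apart.

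Within HL60, 3 ch+ against 3 ch– libraries gave 421 called genes (3.24%), 247 higher (1.9%) and 174 lower (1.34%). Within ML1 there were 445 (3.43%), 232 higher (1.79%) and 213 lower (1.64%). These counts rest on few libraries, and the HL60 count dropped to 254 without ch– replicate 528. Of the genes called in at least 1 line, 239 were called in both, which is 56.8% of the HL60 list and 53.7% of the ML1 list, and 238 of them moved the same way (141 higher and 97 lower). Across the 12980 tested genes, which are not independent replicates, the effects in the 2 lines correlated with r = 0.445 (Pearson) and rho = 0.266 (Spearman), from libraries that the lines do not share. The difference between the lines was tested directly as an interaction, and 1 gene was called (0.0077%). At an unadjusted p under 0.05 there were 658, close to the number that this threshold gives by chance among 12980 genes. Equal totals again raised the higher share, to 73.5% of 449 genes in HL60 against 58.7% as deposited and to 75.9% of 593 genes in ML1 against 52.1%.

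**Figure D1:**
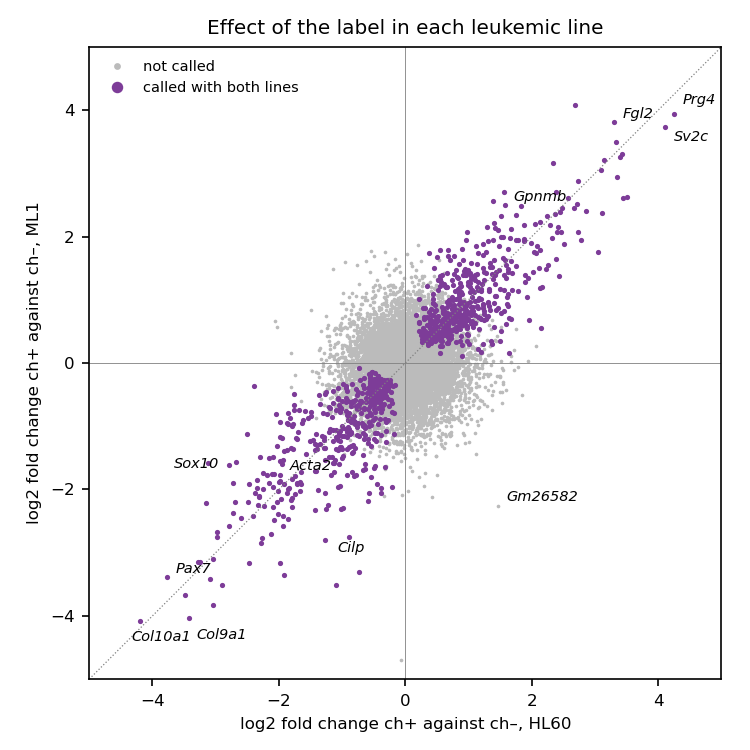
Log2 fold change of ch+ against ch– in HL60 (x axis) and in ML1 (y axis) for the 12980 tested genes, with the 912 genes called over both lines in purple, the others in gray, and the dotted line marking equal effects. The called genes fill the lower left and upper right, from Col10a1 at −4.20 and −4.07 to Prg4 at 4.25 and 3.93, and Gm26582 lies apart at 1.47 and −2.26.

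Prg4 led the genes that were higher in ch+ cells. It encodes lubricin, the glycoprotein that lubricates joint surfaces, and lay at 17.61, 18.10 and 18.83 (lowest, median and highest library) in ch+ against 13.44, 14.04 and 14.73 in ch–. No ch– library came near the lowest ch+ library, and the log2 fold change was 4.09 ± 0.17, adjusted p = 1.51e-15. The rise was of like size in HL60 (4.25) and in ML1 (3.93). In ctrl libraries Prg4 ranged from 16.11 to 17.15, between the groups. Fgl2, a fibrinogen-like protein with prothrombinase activity, was at 11.25, 11.74 and 12.34 in ch+ and at 7.98, 8.22 and 8.50 in ch–, again with a wide gap between the groups (3.56 ± 0.17, adjusted p = 7.28e-15). F13a1, the catalytic chain of the clotting factor that crosslinks fibrin, was at 11.56, 11.82 and 12.09 in ch+ and at 8.45, 8.74 and 9.05 in ch–. Its ch+ libraries lay closely together and well above all ch– libraries, with a log2 fold change of 3.08 ± 0.13, adjusted p = 1.51e-15.

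Clic5, a chloride channel protein tied to the actin cortex, was at 11.73, 12.22 and 12.81 in ch+ and at 8.00 to 9.39 in ch–, where replicate 528 was the lowest. Its log2 fold change was 3.39 in HL60 and 3.26 in ML1, and its adjusted p over both lines 6.03e-14. Htra4, a secreted serine protease of the HtrA family, was at 10.83, 11.52 and 12.05 in ch+ and at 7.54, 7.98 and 9.06 in ch–. The ch– library with the highest Htra4 was replicate 528, at 9.06 still under all ch+ libraries, and the log2 fold change was 3.41 ± 0.19, adjusted p = 3.92e-13. Pla1a, a phospholipase that acts on phosphatidylserine, was at 9.55, 10.26 and 10.60 in ch+ and 6.26, 6.57 and 7.91 in ch– (3.36 ± 0.22, adjusted p = 2.16e-11), with ch– replicate 546 above the others of its group.

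The remaining 4 of the first 10 genes were expressed at lower levels. Sv2c, a synaptic vesicle glycoprotein, ranged only from 8.20 to 8.63 in ch+, while in ch– it spread from 3.05 to 6.04 (3.93 ± 0.36, adjusted p = 1.44e-08). Rab37, a small GTPase of secretory granules, was at 6.38 to 7.65 in ch+ and 3.15 to 5.07 in ch– (3.39 ± 0.36, adjusted p = 1.39e-07). Rtn1, a reticulon of the endoplasmic reticulum, spread from 4.86 to 7.21 in ch+, with replicate 523 lowest, and from 2.69 to 4.32 in ch– (3.14 ± 0.36, adjusted p = 4.12e-07). Tmem196, a membrane protein, was at 5.97 to 7.60 and 2.90 to 4.41 (3.18 ± 0.34, adjusted p = 2.04e-07). In the ch– group Rab37, Rtn1 and Tmem196 were near the lower end of tested values in most libraries, where regularization pulls values toward the mean of a gene. In all 10 genes each line showed the rise on its own, with log2 fold changes from 2.68 (Rab37) to 4.25 (Prg4) in HL60 and from 2.94 (Rtn1) to 4.09 (Rab37) in ML1. The ctrl means of all 10 lay between the ch– and the ch+ medians, for example at 10.72 for Fgl2, 10.96 for F13a1 and 11.15 for Clic5.

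**Figure D2:**
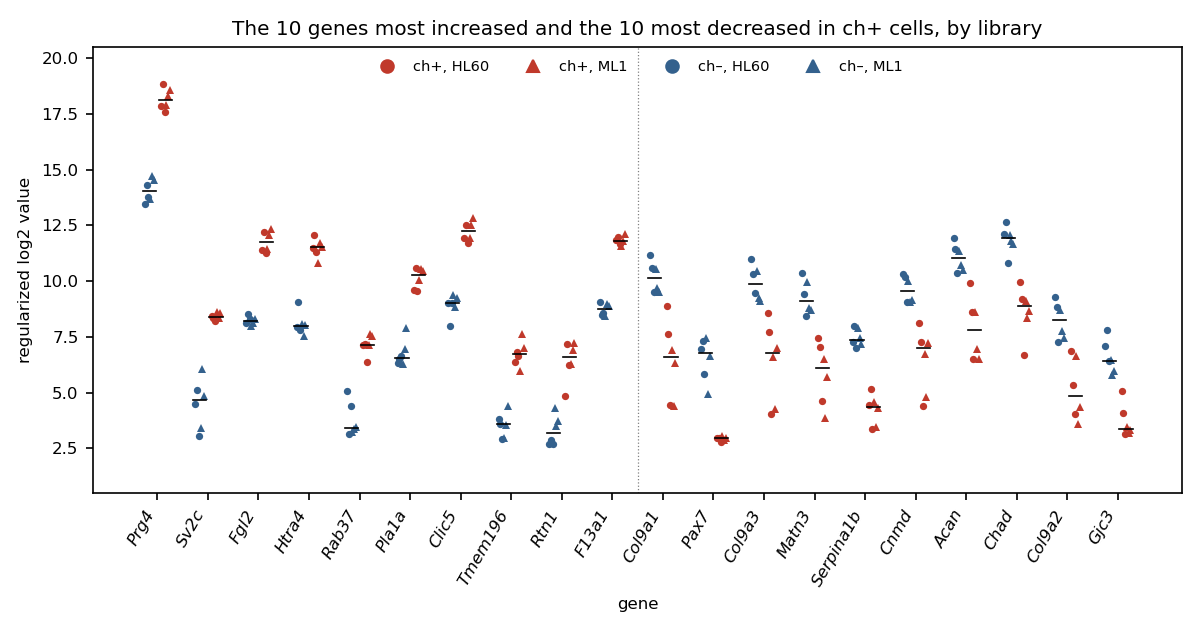
Regularized log2 value (y axis) in each of the 12 libraries for the 10 genes with the largest rise and the 10 with the largest fall in ch+ cells whose groups do not overlap (x axis). Red marks ch+ and blue ch–, circles HL60 and triangles ML1, and black bars the group medians. Prg4 sits at 18.10 in ch+ and 14.04 in ch–, and the cartilage genes from Col9a1 on spread widely among the ch+ libraries.

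Col9a1, a chain of the collagen that coats cartilage fibrils, fell most among the genes whose groups do not overlap. Its values were 4.39, 6.62 and 8.89 in ch+ and 9.50, 10.12 and 11.17 in ch–, a log2 fold change of −3.74 ± 0.48, adjusted p = 3.08e-06. The ch+ libraries were far apart, with replicate 539 lowest at 4.39 and replicate 523 highest at 8.89, both under the ch– range. The other chains of this collagen, Col9a3 (−3.57 ± 0.50, adjusted p = 1.4e-05) and Col9a2 (−3.08 ± 0.45, adjusted p = 2.52e-05), fell with it. Matn3, a matrilin that links cartilage collagens to proteoglycans, was at 3.87, 6.09 and 7.42 in ch+ and 8.45, 9.11 and 10.38 in ch– (−3.43 ± 0.42, adjusted p = 1.66e-06). Acan, the large aggregating proteoglycan of cartilage, was at 6.49, 7.79 and 9.91 in ch+ and 10.37, 11.05 and 11.95 in ch– (−3.21 ± 0.38, adjusted p = 7.79e-07). Cnmd, or chondromodulin, which keeps vessels out of cartilage, and Chad, a leucine-rich protein to which chondrocytes attach, fell by 3.21 and 3.20. For all 7 of these cartilage genes the ctrl mean lay above the ch– median, at 11.07 for Col9a1 and 11.80 for Acan.

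Of the first 10 genes that fell, 3 have other roles. Pax7, the transcription factor of muscle satellite cells, was between 2.80 and 3.07 in all ch+ libraries and at 4.95, 6.79 and 7.47 in ch–, where replicate 544 was lowest (−3.58 ± 0.37, adjusted p = 1.01e-07). Thus ch+ libraries were uniformly near the floor for Pax7, and every ch– library was at least 1 unit above them. Gjc3, a connexin of myelinating glia, was at 3.15, 3.39 and 5.08 in ch+ and 5.78, 6.42 and 7.78 in ch– (−2.86 ± 0.35, adjusted p = 1.19e-06). Serpina1b, one of several near-identical alpha-1-antitrypsin genes, was at 3.37 to 5.16 in ch+ and 6.99 to 7.98 in ch– (−3.25 ± 0.34, adjusted p = 9.92e-08). Its value is uncertain, because reads can be split among these copies.

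Lists of genes for cell types and pathways give the wider picture, and each is read against all 12980 tested genes, of which 3.7% were called higher and 3.33% lower at a median log2 fold change of −0.02. Of 20 cell type lists 16 held at least 1 called gene, and of 20 pathway lists 17. In these bulk libraries, fewer cells of a type and less RNA per cell cannot be told apart. A list's summed level is the sum of its members' linear values, in units of 1000 normalized counts. Equal library totals move the log2 fold change of every gene upward by the same amount. Over all tested genes the median then becomes 0.13, and 896 genes are called higher against 480 as deposited. List medians and calls with equal totals are to be read against that shift.

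**Figure D3:**
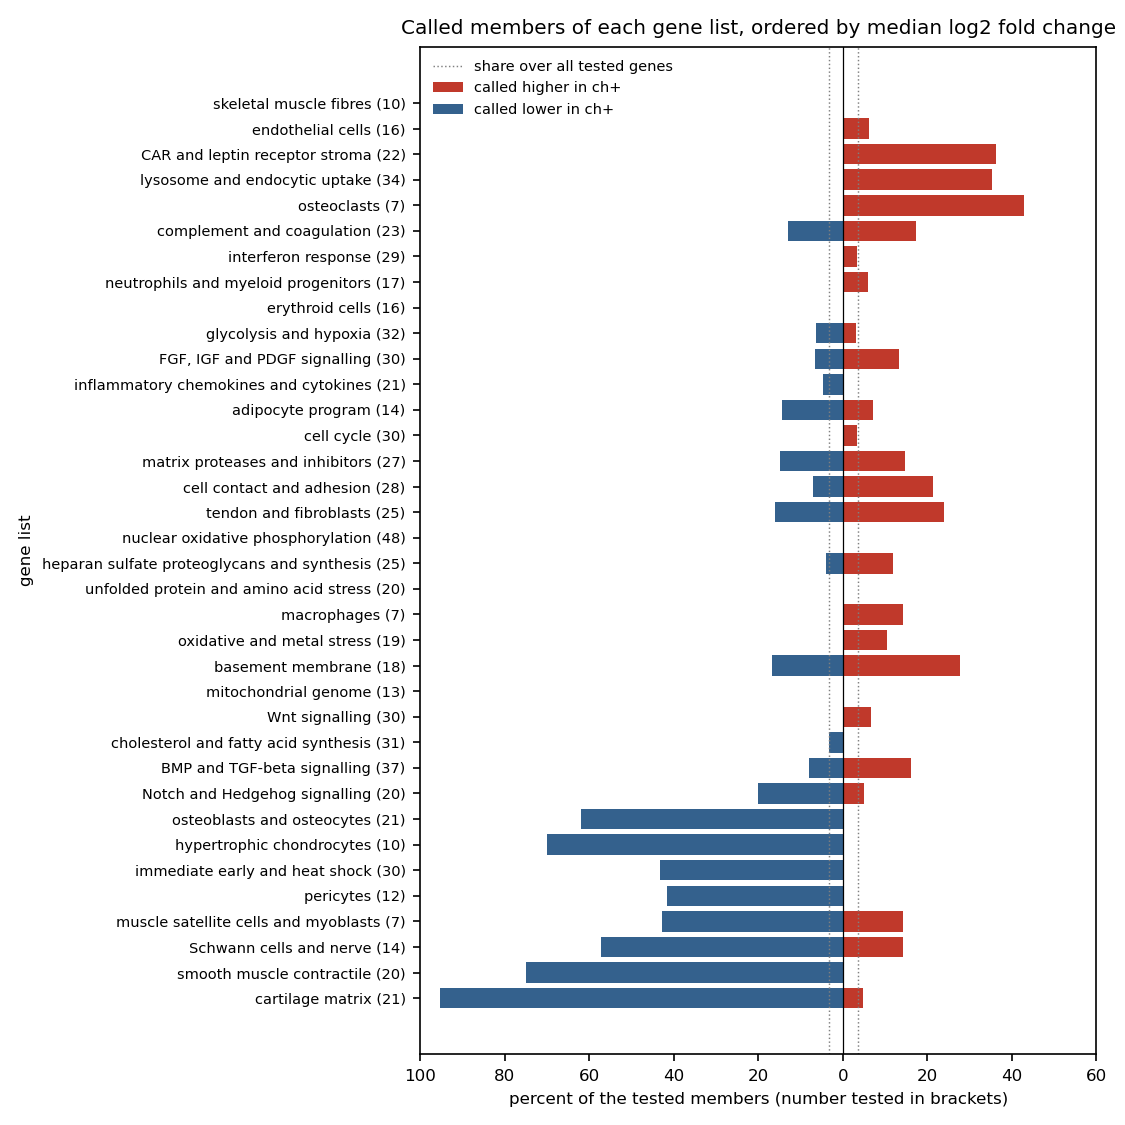
Percent of the tested members of each list called higher (red, to the right) or lower (blue, to the left) in ch+ cells, for the lists with at least 5 tested genes, ordered by median log2 fold change from cartilage matrix at the bottom to skeletal muscle at the top. Dotted lines mark the shares over all tested genes, 3.7% higher and 3.33% lower.

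Cartilage matrix genes fell almost as a block. Of 22 genes 21 were tested, and 20 were lower in ch+ while 1 was higher, with a median log2 fold change of −2.31 (17 lower in HL60 alone and 19 in ML1 alone). Their summed level was 51.9, 65.6 and 83.9 in ch+ and 99, 132 and 164 in ch–, so every ch+ library held less than every ch– library. Col2a1, the main fibril collagen of cartilage, was at 12.78, 13.53 and 14.44 in ch+ and 14.76, 15.42 and 16.02 in ch– (−1.82 ± 0.18, adjusted p = 4.42e-08), and so remained abundant on both sides of the comparison. Per kilobase of exon Col2a1 was at 10.37 in ch+, above Acan at 4.95 and Col9a1 at 4.09. Col11a1, a fibril collagen that bone-forming cells also express, was the most abundant gene of the list. The 1 gene that rose, named here after its values were seen, was Matn4, a matrilin also found outside cartilage, at 4.83 to 6.02 in ch+ and 3.28 to 4.48 in ch– (1.35 ± 0.32, adjusted p = 0.00833). The 1 gene under the filter was not tested.

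The factors that direct chondrocyte formation did not move together. Sox9, the factor that switches on Col2a1 and Acan, was at 6.47, 7.21 and 8.12 in ch+ and 8.55, 8.82 and 9.71 in ch– (−1.81 ± 0.24, adjusted p = 5.03e-06), below all ch– libraries in each ch+ library. Its partner Sox5 went the other way, at 8.84, 9.08 and 9.45 in ch+ and 5.84, 7.71 and 8.57 in ch– (1.64 ± 0.28, adjusted p = 0.000241), and again the groups did not overlap. In ctrl libraries Sox5 had a mean of 9.01 and Sox9 of 9.56. Of the list of 8 factors 4 were tested, and the other 2 of these were not called.

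Hypertrophic chondrocytes mineralize their matrix and share genes with osteoblasts. Of 10 tested genes 7 were lower in ch+ and none was higher, with a median log2 fold change of −0.38. With equal library totals the median was −0.23 and 5 were called. Col10a1, the collagen that defines these cells, showed the largest fall of all 912 called genes (−4.14 ± 0.61, adjusted p = 2.39e-05), but with groups that overlapped. It was at 3.13, 3.76 and 8.11 in ch+ and 6.83, 9.22 and 9.81 in ch–, where 1 ch+ library reached into the ch– range. Panx3, a channel protein of differentiating chondrocytes and osteoblasts, was at 7.67 to 8.62 in ch+ and 9.02 to 10.07 in ch– (−1.31 ± 0.15, adjusted p = 5.26e-07). Spp1 (osteopontin), the parathyroid hormone receptor gene Pth1r and the transcription factor gene Mef2c fell by 0.65, 0.59 and 0.48, each with groups that did not overlap. Ihh, the hedgehog ligand of these cells, was under the filter with a highest value of 3.49, in a ch– library. The summed level was 38.1, 41.1 and 44.5 in ch+ and 51.2, 54.4 and 58.8 in ch–, with Spp1 as the most abundant gene.

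Genes of the contractile apparatus of smooth muscle were lower in ch+ cells. Of 20 tested genes 15 fell, none rose, and the median log2 fold change was −1.40 (−1.57 in HL60 and −1.23 in ML1). Myh11, the smooth muscle myosin heavy chain, was at 9.60, 9.65 and 10.40 in ch+ and 11.53, 12.07 and 12.64 in ch–. This was a wide gap with tight groups, and its log2 fold change was −2.25 ± 0.13, adjusted p = 2.19e-12. Acta2, smooth muscle actin, was at 8.86, 9.50 and 10.36 in ch+ and 10.97, 11.52 and 11.98 in ch– (−1.94 ± 0.17, adjusted p = 5.92e-09). Tagln (−2.26), the calcium store protein Casq2 (−2.28) and the calcium pump regulator Pln (−2.17) fell by like amounts, each with groups apart. Summed, the list came to 16.5, 17.4 and 21.3 in ch+ and 24.6, 29.5 and 35.6 in ch–, with no overlap, and Tpm1 was its most abundant gene.

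Pericytes, the mural cells of small vessels, showed a smaller difference. Of 12 tested genes 5 were lower and none higher (median −0.47, and −0.32 with equal library totals). Rgs5, a signaling regulator that marks them and the most abundant gene of the list, was at 12.03, 12.28 and 12.45 in ch+ and 12.47, 12.84 and 13.11 in ch–, just apart (−0.55 ± 0.11, adjusted p = 0.00119). Notch3, their Notch receptor, was at 9.88, 10.56 and 10.76 in ch+ and 11.01, 11.28 and 11.57 in ch– (−0.83 ± 0.14, adjusted p = 0.000119). Rgs4 fell by 1.37, Mcam by 1.66 and Ndufa4l2 by 1.41. The receptor gene Pdgfrb, which most stromal cells share, was at 11.02 to 11.43 in ch+ and 10.63 to 11.47 in ch– (0.12, adjusted p = 0.71). The summed level was 11, 11.7 and 12.4 in ch+ against 13.7, 16.2 and 18 in ch–.

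Muscle lists were mixed. Of 21 genes of skeletal muscle fibers 10 were tested and none was called over both lines (median 0.70, with 0.05 in HL60 and 0.96 in ML1). Within ML1 alone 1 was called higher. The summed level was 0.523, 0.915 and 1.24 in ch+ and 0.484, 0.756 and 1.13 in ch–. Acta1, skeletal actin and the list's most abundant gene per kilobase, was at 5.32 to 8.32 in ch+ and 5.09 to 7.23 in ch– (1.03, adjusted p = 0.15). Ckm, the creatine kinase of muscle, was at 5.01 to 5.78 and 3.05 to 5.44 (0.92, adjusted p = 0.154). Without ch– replicate 529, Acta1 (1.37, adjusted p = 0.0227) and Ckm (1.17, adjusted p = 0.0383) passed the threshold, and Acta1 passed without ch+ replicate 524 (1.36, adjusted p = 0.0253). Both passed with equal library totals (Acta1 1.19, 0.0722, and Ckm 1.07, 0.0677). Of the satellite cell list 7 genes were tested. Besides Pax7, the receptor gene Fgfr4 (−2.22 ± 0.34, adjusted p = 4.65e-05) and the lectin gene Chodl (−1.93 ± 0.38, adjusted p = 0.00132) fell, while Megf10, an engulfment receptor, rose (1.05 ± 0.15, adjusted p = 2.2e-05). Myf5, the defining factor of committed satellite cells, was under the filter, at 2.30 to 2.94 in ch+ and 2.91 to 4.99 in ch–. The most abundant gene was Vcam1, which reticular stroma expresses too, and the part of these muscle genes in other differences was not tested.

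Genes of CXCL12-abundant reticular (CAR) cells, the leptin receptor stroma that supports blood stem cells, shifted upward in ch+. Of 22 genes, all tested, 8 were higher and none was lower, at a median log2 fold change of 0.36 (0.50 in HL60 and 0.26 in ML1). Serping1, the C1 inhibitor, was at 13.41, 13.86 and 14.16 in ch+ and 12.51, 12.99 and 13.37 in ch– (0.82 ± 0.10, adjusted p = 7.92e-07). Ebf1, a transcription factor that CAR cells need, was at 11.19, 11.53 and 11.65 in ch+ and 10.67, 10.80 and 11.04 in ch– (0.68 ± 0.10, adjusted p = 3.79e-05). In both genes every ch+ library exceeded every ch– library. Igfbp5, which binds insulin-like growth factors, rose by 0.53, the adipokine gene Adipoq by 0.59 and Csf1, a growth factor of macrophages, by 0.50. Cxcl12 itself was at 15.74, 16.09 and 16.34 in ch+ and 14.97, 15.66 and 15.98 in ch–, with overlap (0.46 ± 0.11, adjusted p = 0.0109). The call of Cxcl12 held in 15 of 16 alternatives. It was lost after quantile normalization, where the difference was 0.06 (adjusted p = 0.912), so that it depends in part on the scaling. Lepr, which defines the cells, was at 12.83, 13.21 and 13.71 in ch+ and 12.48, 13.03 and 13.27 in ch– and did not pass (0.28, adjusted p = 0.113). It passed without ch+ replicate 524 (0.33, adjusted p = 0.0596) or 541 (0.31, 0.072), and without ch– replicate 527 (0.32, 0.0753) or 529 (0.33, 0.0567). It passed also with equal library totals (0.43, 0.0129) and after quantile normalization (0.38, 0.0196). Kitl, stem cell factor, named after its values were seen, had a log2 fold change of 0.30 (adjusted p = 0.344), and was called with equal library totals (0.45, 0.0926). Without ch– replicate 528, where Kitl was at 9.71 against 10.60 to 10.99 in the other ch– libraries, it was 0.13. The list's summed level was 149, 164 and 197 in ch+ and 85.8, 122 and 154 in ch–, with ranges that overlapped. With equal library totals 14 genes of the list were called, while the genes called higher among all those tested went from 480 to 896.

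Osteoblast and osteocyte genes, by contrast, were lower in ch+. Of 21 tested genes 13 fell and none rose, at a median log2 fold change of −0.34, so that the differences were small. Mepe, a matrix phosphoprotein of osteocytes, was the exception in size, at 4.80, 5.62 and 6.48 in ch+ and 7.04, 7.41 and 7.85 in ch– (−1.80 ± 0.28, adjusted p = 6.81e-05). Sp7 (osterix), the factor that commits cells to bone, was at 10.43, 10.84 and 11.09 in ch+ and 11.15, 11.33 and 11.74 in ch– (−0.57 ± 0.12, adjusted p = 0.00205). Neither gene's groups overlapped. Col1a1, a chain of type I collagen, was by far the most abundant gene, and the summed level was 1670, 1810 and 2040 in ch+ and 1960, 2320 and 2580 in ch–. Bglap (osteocalcin) fell by 0.26 (adjusted p = 0.0558), a call lost on leaving out any 1 of the libraries 524, 525, 528, 529, 538 and 546, at log2 fold changes from −0.25 to −0.22. It was lost also with equal library totals (−0.11, adjusted p = 0.525), with all 21 libraries in the fit (−0.26, 0.173) and without the cell line term (−0.26, 0.101). Without ch– replicate 528 the list held 8 called genes, and with equal library totals 8 too, at a median of −0.19.

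In the list of tendon and fibroblast genes 6 of 25 tested genes rose and 4 fell, at a median of −0.02. The summed level was 279, 368 and 564 in ch+ and 93.5, 106 and 119 in ch–, and Prg4 made up most of it in ch+. Ly6a, the stem cell antigen Sca-1 of stromal progenitors, was at 9.98, 10.60 and 11.05 in ch+ and 7.96, 8.25 and 8.74 in ch– (2.24 ± 0.18, adjusted p = 1.29e-09). Dpt, or dermatopontin, a matrix protein of fibroblasts, was at 8.71, 9.37 and 9.73 in ch+ and 6.98, 7.84 and 8.06 in ch– (1.56 ± 0.19, adjusted p = 2.01e-06). Neither gene's groups overlapped. Of the genes that fell, Cilp (−2.03) and Fmod (−1.57) encode matrix proteins that cartilage shares with tendon. The tendon-defining Scx and Tnmd were under the filter, with highest values of 3.86 and 3.85. Without the cell line term the list held 6 called genes.

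Fat cell genes changed little as a list, with 1 of 14 tested genes higher and 2 lower. The one that rose was Adipoq, which CAR cells express, at 11.56, 12.11 and 12.39 in ch+ and 10.60, 11.47 and 11.84 in ch– (0.59 ± 0.15, adjusted p = 0.0187). Plin4, a lipid droplet coat protein, fell by 1.41 (adjusted p = 0.0102). Cebpd, a factor of early fat cell formation, fell by 0.57 (adjusted p = 0.0726), a call lost on leaving out any 1 of the libraries 523, 524, 527, 529, 541, 543 and 544, at log2 fold changes from −0.57 to −0.42, and with equal library totals (−0.42, adjusted p = 0.236). Plin1, the droplet protein of mature fat cells, was under the filter at 2.08 to 3.33 in ch+ and 2.10 to 2.99 in ch–. Endothelial genes were at low levels, with a summed level of 1.51, 1.74 and 2.07 in ch+ and 0.883, 1.14 and 1.39 in ch–. The median log2 fold change of the 16 tested genes was 0.38, with opposite signs in HL60 (0.70) and ML1 (−0.24). Without ch– replicate 528 the median was 0.24. In HL60 alone 2 were called. Over both lines only Ly6c1 was called, which stromal progenitors also express, at 8.19, 8.95 and 9.52 in ch+ and 5.77, 6.76 and 7.60 in ch– (2.23 ± 0.26, adjusted p = 8.57e-07). The endothelial cadherin gene Cdh5 was at 6.17 to 7.43 in ch+ and 5.66 to 7.18 in ch– (0.50, adjusted p = 0.466).

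Genes of Schwann cells, the glia of peripheral nerves that accompany marrow arteries, were mostly lower in ch+. Of 14 tested genes 8 were lower in ch+ and 2 higher, at a median log2 fold change of −1.38. Sox10, the master factor of these glia, was between 3.07 and 3.33 in ch+ and at 4.57, 5.43 and 6.15 in ch– (−2.20 ± 0.30, adjusted p = 1e-05). Thus ch+ libraries were close to the lowest tested values for Sox10, and each ch– library was at least 1 unit higher. L1cam (−2.44) and Ncmap (−2.31) also fell. The 2 genes that rose, S100b (1.11 ± 0.25, adjusted p = 0.00441) and Pmp22 (0.51 ± 0.13, adjusted p = 0.0131), were named after their values were seen. They are not restricted to nerve, and Pmp22 was the most abundant gene of the list. For that reason the summed level ran the other way, at 2.58, 3.25 and 4.1 in ch+ and 2.43, 2.65 and 3.51 in ch–. The part of these genes in the other differences was not tested.

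Blood cells had been removed before the sort, and few of their genes were called. Of 7 tested macrophage genes only Axl was called, which encodes a receptor that fibroblasts carry too. Axl was at 10.65, 11.08 and 11.42 in ch+ and 8.91, 9.24 and 9.60 in ch– (1.77 ± 0.14, adjusted p = 1.46e-09). Without ch+ replicate 541 the list held 2 called genes. The macrophage-defining Adgre1 and Csf1r were under the filter in both groups, with highest values of 1.14 and 3.65. The summed level of the macrophage list was 2.68, 3.28 and 4.53 in ch+ and 1.59, 2.06 and 2.58 in ch–, without overlap, and Axl made up 50.4% of the sum over the 12 libraries of both groups. Of 17 tested genes of neutrophils and myeloid progenitors 1 was called, Mmp9 (0.94 ± 0.27, adjusted p = 0.0351), which osteoclasts make too. Its call was lost without ch+ replicate 523 (0.73, adjusted p = 0.136) or ch– replicate 528 (0.79, 0.112), which left none in the list. The summed level of this list was 1.4, 2.61 and 3.39 in ch+ and 1.61, 1.95 and 3.56 in ch–, with S100a9 as the most abundant gene. S100a8 was at 7.14 to 8.56 and 7.42 to 8.67, and at 3.17 to 3.47 in ctrl. For this gene the ctrl libraries thus lay below both early groups, which overlapped, and the gap to ctrl and its cause were not tested. None of 16 tested erythroid genes was called. Their summed level was 5.13, 9.36 and 13.9 in ch+ and 5.85, 8.58 and 11.1 in ch–, with overlap throughout, and Hbb-bs was the most abundant gene. Over both lines neither the 3 tested megakaryocyte genes nor the 1 tested mast cell gene was called. Within ML1 alone 1 megakaryocyte gene was lower, and over both lines without ch– replicate 529 Itgb3, a platelet integrin chain, passed (−0.75, adjusted p = 0.076). Cd3e, which defines T cells, was at 0.62 or nearly so in all but ch+ replicate 525 (1.54). Ebf1, called in the lymphoid list, is the gene described above for CAR cells.

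Of 7 tested osteoclast genes 3 were higher in ch+ over both lines. Within HL60 1 was higher, and within ML1 1 was higher and 1 lower, Itgb3 (−1.17, adjusted p = 0.0434). Atp6v0d2, a subunit of the proton pump of osteoclasts and lysosomes, was at 5.13, 5.41 and 6.49 in ch+ and 2.73, 3.03 and 3.57 in ch–, without overlap (2.56 ± 0.32, adjusted p = 2.34e-06). Acp5, tartrate-resistant acid phosphatase, was at 6.04 to 7.03 in ch+ and 4.81 to 6.37 in ch– (1.04 ± 0.30, adjusted p = 0.0373), a call lost without ch+ replicate 524 (0.95, adjusted p = 0.108) or ch– replicate 527 (0.92, 0.101). The third, Mmp9, lost its call without ch+ replicate 523 (0.73, adjusted p = 0.136) or ch– replicate 528 (0.79, 0.112). Ocstamp, needed for osteoclast fusion, was under the filter at its floor in all libraries. Summed, the list came to 1.81, 2.18 and 2.47 in ch+ and 1.9, 2.23 and 2.55 in ch–, with Ckb most abundant.

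**Figure D4:**
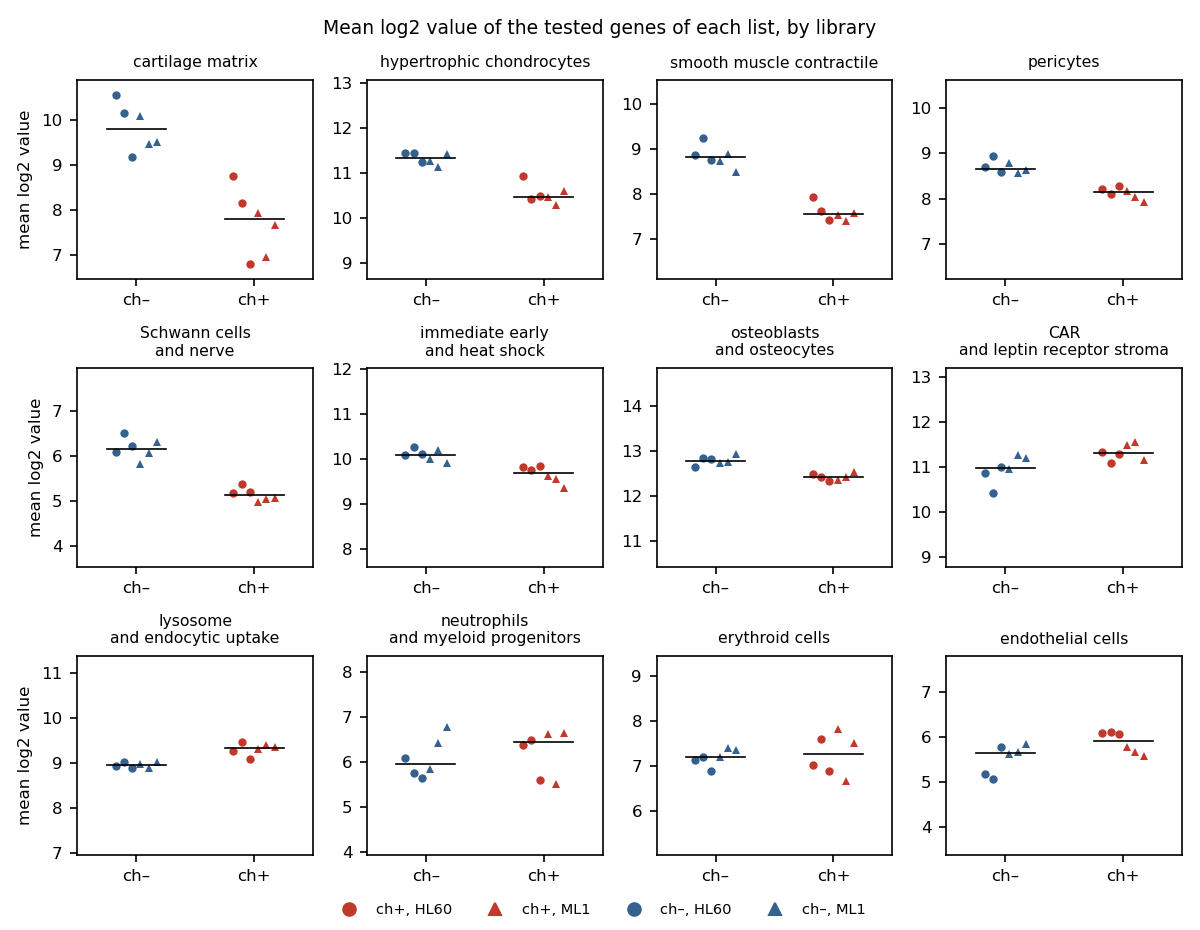
Mean log2 value of the tested genes of 12 lists (y axis, each panel spanning the same number of log2 units) in the 6 ch– and 6 ch+ libraries (x axis), with circles for HL60, triangles for ML1 and black bars for the medians. Cartilage matrix ranges from 6.81 to 8.75 in ch+ and from 9.18 to 10.55 in ch–, smooth muscle from 7.42 to 7.94 and from 8.50 to 9.25, while the erythroid libraries mix.

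Among the pathway lists, lysosome and endocytic uptake moved most clearly upward. Of 34 genes, all tested, 12 were higher in ch+ and none was lower, at a median log2 fold change of 0.35 (0.33 in HL60 and 0.38 in ML1). Dab2, an adaptor that gathers receptors into clathrin pits, was at 10.65, 10.69 and 11.10 in ch+ and 9.82, 10.03 and 10.22 in ch– (0.76 ± 0.12, adjusted p = 5.13e-05). The lysosomal proteases Ctsd, at 10.95, 11.28 and 11.42 in ch+ and 10.23, 10.56 and 10.67 in ch– (0.74 ± 0.11, adjusted p = 2.82e-05), and Ctsb (0.72 ± 0.13, adjusted p = 0.000348) rose too, with groups apart. Gpnmb, a glycoprotein of lysosomes under load, had the largest rise (2.04 ± 0.36, adjusted p = 0.000372), with values of 4.94 to 6.23 in ch– and 6.01 to 8.46 in ch+ that overlapped. Cav1, which forms caveolae, rose by 0.63. The summed level was 43.2, 51.6 and 54.1 in ch+ and 36.5, 38.2 and 39.3 in ch–, without overlap. With equal library totals the median was 0.50, and that over all tested genes moved up likewise, to 0.13.

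Immediate early and heat shock genes were lower in ch+. These genes respond within minutes to signals, and also to digestion and sorting of tissue. Of 30 tested genes 13 fell and none rose, at a median log2 fold change of −0.47 (−0.34 in HL60 and −0.52 in ML1). The best known of them, Egr1, Fos and Jun, were picked out after their values were seen. Egr1 was at 13.84, 13.91 and 13.95 in ch+ and 14.30, 14.43 and 14.47 in ch– (−0.51 ± 0.07, adjusted p = 5.1e-06). Fos was at 13.15, 13.25 and 13.37 in ch+ and 13.49, 13.69 and 13.96 in ch– (−0.46 ± 0.08, adjusted p = 0.000353), and Jun at 12.41, 12.60 and 12.99 in ch+ and 13.06, 13.15 and 13.28 in ch– (−0.53 ± 0.09, adjusted p = 0.000142). All 3 factors kept the groups apart within narrow ranges. Ier2 (−0.82), Btg2 (−0.89), Nr4a2 (−0.87), Nr4a1 (−0.69) and Hspa1a (−0.66), which encodes an inducible heat shock protein, fell somewhat more. The ctrl means of Fos (13.20) and Jun (12.56) were nearer to the ch+ medians. Summed, the list came to 66.4, 71.5 and 79.3 in ch+ and 92.1, 95.6 and 106 in ch–, and the part of handling in this difference was not tested. The related unfolded protein list had no called gene among 20 tested over both lines, and 1 higher within HL60 alone. Over both lines it held 1 called gene without ch– replicate 544, ch+ replicate 539 or ch+ replicate 541, and 2 with equal library totals. Its most abundant gene, the chaperone gene Hsp90b1, was at 13.03 to 13.35 in ch+ and 12.79 to 13.19 in ch– (0.15, adjusted p = 0.378), and was called with equal library totals (0.31, 0.0403).

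Basement membranes are the sheets that surround vessels, fat cells and nerves, and their genes were called in both directions. Of 18 tested genes 5 rose and 3 fell. The collagen IV chains Col4a1, at 12.21, 12.26 and 12.38 in ch+ and 11.10, 11.40 and 11.70 in ch– (0.85 ± 0.09, adjusted p = 1.75e-07), and Col4a2 (0.92 ± 0.10, adjusted p = 1.75e-07) rose together, with groups apart. Lamc3 fell by 1.43 (adjusted p = 0.0131). Lama5 (−0.74) and Col18a1 (−0.71) fell as well, though Lama5 lost the call without ch– replicate 528 (−0.61, adjusted p = 0.129), as did Col18a1 (−0.55, 0.182). Col18a1 lost it also without ch+ replicate 524 (−0.65, 0.116), ch+ replicate 525 (−0.65, 0.109) or ch– replicate 543 (−0.64, 0.126). With equal library totals neither was called (Lama5 −0.58, 0.103, and Col18a1 −0.56, 0.127). Without ch– replicate 528 the list held 5 called genes. Heparan sulfate proteoglycans, to which growth factors and chemokines bind, had 3 of 25 tested genes higher and 1 lower. Sdc2, a syndecan and the most abundant of them per kilobase, was at 12.11, 12.45 and 12.75 in ch+ and 11.13, 11.24 and 11.28 in ch– (1.15 in HL60, 1.28 in ML1, adjusted p = 2.23e-09 over both lines). Sulf2, a secreted enzyme that trims sulfate from these chains, rose by 1.64 (adjusted p = 7.94e-06) and Sdc1 by 1.00 (adjusted p = 0.000774), while the sulfotransferase gene Hs3st3b1 fell (−1.11 ± 0.36, adjusted p = 0.0761). That last call was lost on leaving out any 1 of the libraries 523, 525, 527, 528, 538, 539, 541, 543, 544 and 546, at log2 fold changes from −1.14 to −0.95, and with equal library totals (−0.96, adjusted p = 0.122).

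Adhesion receptors rose in part. Of 28 tested genes 6 were higher and 2 lower. Itga6, the integrin chain that binds laminin, was at 9.26, 9.65 and 10.10 in ch+ and 6.72, 7.17 and 8.06 in ch– (2.37 ± 0.19, adjusted p = 1.57e-09). Itgb8, a chain of an integrin that activates TGF-β, was at 7.87, 8.09 and 8.62 in ch+ and 5.71, 6.27 and 6.92 in ch– (1.90 ± 0.25, adjusted p = 4.71e-06). Cdh13, a cadherin without a cytoplasmic part, was at 9.32, 9.97 and 10.51 in ch+ and 7.84, 8.55 and 8.82 in ch– (1.41 ± 0.16, adjusted p = 4.81e-07). In all 3 every ch+ library was above every ch– library. Itga5 (0.84), a chain of the fibronectin receptor, rose by less, and Itga8 (−0.75), typical of smooth muscle, fell. Itgb1, the common partner chain, was the most abundant gene per kilobase.

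Proteases of the matrix and their inhibitors were divided, with 4 of 27 tested genes higher and 4 lower. Adamts5, an enzyme that cuts aggrecan, was at 10.31, 10.75 and 11.33 in ch+ and 9.37, 9.60 and 9.87 in ch– (1.18 ± 0.13, adjusted p = 3.5e-07). Adam9 rose by 0.81 and Timp2 by 0.70, both with groups apart, while Mmp9 rose by 0.94 with a call that was lost without ch+ replicate 523 (0.73, adjusted p = 0.136) or ch– replicate 528 (0.79, 0.112). The inhibitor gene Timp4 fell by 1.13 (adjusted p = 0.0239). The list held 5 called genes without ch– replicate 528. In the complement and coagulation list 4 of 23 tested genes rose and 3 fell. Besides F13a1 and Serping1, Cd55, which shields cells from complement, was at 9.98, 10.39 and 10.65 in ch+ and 7.94, 8.42 and 9.18 in ch– (1.85 ± 0.16, adjusted p = 5.08e-09). The clotting cofactor gene F5 fell by 1.32 (adjusted p = 0.00404). The thrombin receptor gene F2r fell by 0.83 (adjusted p = 0.0551), a call lost without ch– replicates 528 (−0.81, 0.119), 543 (−0.80, 0.106) or 544 (−0.72, 0.152) or ch+ replicate 538 (−0.66, 0.158), and with equal library totals (−0.68, 0.131).

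Signaling lists held scattered changes. In the BMP and TGF-β list 6 of 37 tested genes rose and 3 fell. Ltbp3, a protein that stores latent TGF-β in the matrix, was at 10.41, 10.80 and 11.13 in ch+ and 9.81, 10.00 and 10.11 in ch– (0.82 ± 0.12, adjusted p = 2.65e-05). Ltbp2 rose by 0.70 and the receptor gene Tgfbr2 by 0.58. The call of Bmp7 (−0.67) was lost on leaving out any 1 of the libraries 538, 539, 543 and 546 (−0.63 to −0.55), and that of Inhba (0.61) on leaving out any 1 of the libraries 524, 525, 529, 538, 539, 541, 543 and 544 (0.45 to 0.65). Bmp7 lost it also with equal library totals (−0.52, adjusted p = 0.166), and Inhba after quantile normalization (0.60, 0.103) and with all 21 libraries in the fit (0.61, 0.103). Without ch+ replicate 539 the list held 5 called genes. Of 20 tested Notch and Hedgehog genes 1 rose and 4 fell. Cdon, a coreceptor for hedgehog ligands, was at 10.56, 10.84 and 11.33 in ch+ and 8.83, 9.03 and 9.61 in ch– (1.76 ± 0.15, adjusted p = 2.39e-09). Ptch1, the hedgehog receptor and itself a target of the pathway, was at 8.56, 9.10 and 9.43 in ch+ and 9.70, 10.19 and 10.91 in ch– (−1.19 ± 0.17, adjusted p = 1.32e-05), and Nrarp, a target of Notch, fell by 1.89 (adjusted p = 0.000986). The fall of the Notch target gene Hey2 (adjusted p = 0.0786) was not called on leaving out any 1 of the libraries 524, 525, 527, 528, 529, 539, 541, 543 and 544 (−1.03 to −0.85) or with equal library totals (−0.85, adjusted p = 0.139).

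Of 30 tested genes for fibroblast, insulin-like and platelet-derived growth factors 4 rose and 2 fell. Vegfd, a lymphatic growth factor, rose, with values of 2.92 to 3.94 in ch– and a wider spread of 3.41 to 7.39 in ch+ (2.13 ± 0.48, adjusted p = 0.00478). Fgf1 was at 4.95, 6.69 and 7.33 in ch+ and 7.94, 8.29 and 8.70 in ch– (−1.78 ± 0.28, adjusted p = 5.92e-05). Igf1 rose by 0.60 (adjusted p = 0.00877) and Igfbp4 by 0.66 (adjusted p = 0.00144). Pdgfc (−0.59) lost its call without ch+ replicate 538 (−0.53, adjusted p = 0.103) or ch– replicate 546 (−0.51, 0.122) and with equal library totals (−0.43, 0.177). Of 30 tested Wnt genes only 2 were called, the decoy receptor gene Sfrp1 (0.81 ± 0.13, adjusted p = 0.000136) and the agonist gene Rspo2 (1.36 ± 0.39, adjusted p = 0.0327), both higher. The call of Rspo2 was lost without ch+ replicate 524 (1.17, adjusted p = 0.114) or 539 (1.12, 0.118).

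Stress, immune and metabolic lists were close to the background. Of 19 tested oxidative stress genes Gadd45a (1.00 ± 0.23, adjusted p = 0.00668), a brake on division after damage, and Sod3 (0.83 ± 0.16, adjusted p = 0.00119), the extracellular superoxide dismutase, rose. Of 21 tested inflammatory genes Nfkbiz, a modulator of NF-κB, fell, with values of 9.03 to 9.70 in ch– and 8.28 to 8.62 in ch+ (−0.85 ± 0.15, adjusted p = 0.000336). Of 29 tested interferon response genes 1 was called, and the list held 2 called genes without ch– replicates 527 or 528 or ch+ replicate 525, 3 without ch– replicate 529 or ch+ replicate 541, with all 21 libraries in the fit or after quantile normalization, and 6 with equal library totals. Of 30 tested cell cycle genes 1 was called, the cyclin gene Ccnd2, at 9.95, 10.19 and 10.40 in ch+ and 9.14, 9.33 and 9.67 in ch– (0.82 ± 0.13, adjusted p = 4.25e-05). None of the 13 genes of the mitochondrial genome or of the 48 nuclear genes of oxidative phosphorylation was called over both lines. Within ML1 alone 1 mitochondrial gene was lower. In the mitochondrial list 1 gene was called without ch– replicate 527 or ch+ replicates 523 or 524, and 3 after quantile normalization. These include mt-Co1, at −0.71 (adjusted p = 0.00167) with that normalization and −0.07 (adjusted p = 0.802) without it. In the glycolysis and hypoxia list Car12, a membrane carbonic anhydrase, fell by 1.31 (adjusted p = 0.000139). The other 2 calls of its 32 tested genes, Ero1l (0.53) and P4ha1 (−0.44), were both lost without ch+ replicates 524 (0.51 and −0.36) or 539 (0.47 and −0.38) and without ch– replicates 528 (0.51 and −0.38) or 543 (0.49 and −0.43), which left 1. Ero1l lost it also without libraries 523, 527 or 541, and P4ha1 without 544 or 546, with equal library totals (−0.29, adjusted p = 0.301) and with all 21 libraries in the fit (−0.44, 0.152). Of 31 tested genes of cholesterol and fatty acid synthesis 1 was called, lower in ch+. The list held none on leaving out any 1 of the libraries 523, 524, 528, 538, 543 and 546, and the list held 2 called genes without ch– replicates 527 or 544 or ch+ replicate 541.

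The effect of the label differed between the leukemic lines for 1 gene. Gm26582, a gene model without a described product, had a log2 fold change of 1.47 ± 0.43 in HL60 and of −2.26 ± 0.43 in ML1. The difference, ML1 minus HL60, was −3.72 ± 0.61 (interaction in limma, adjusted p = 0.0315). In ch+ libraries it was at 5.00, 4.80 and 5.71 with HL60 and at 3.49 or below in all 3 with ML1. In ch– libraries it was at 4.27, 3.48 and 3.35 with HL60 and at 5.37, 5.88 and 5.73 with ML1. The call was lost on leaving out any 1 of the libraries 528, 529, 544, 546, 538, 539 or 541. Without ch+ replicate 525 the 1 called gene was another, so the call did not hold in every fit with 1 library fewer.

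Unengrafted mice give a reference for the direction of these differences, although the ctrl libraries were not tested here. Among the 480 genes higher in ch+, the ctrl mean lay between the ch– and ch+ means for 375, below ch– for 79 and above ch+ for 26. Among the 432 genes lower in ch+, it lay between the groups for 179, above ch– for 231 and below ch+ for 22. The cartilage gene Col2a1 was highest in ctrl, with a ctrl mean of 16.29, a ch– median of 15.42 and a ch+ median of 13.53. Myh11 was highest there too, at 12.79, 12.07 and 9.65. Itga6 was intermediate in ctrl like most genes higher in ch+, with a ctrl mean of 8.47 between a ch– median of 7.17 and a ch+ median of 9.65. Mepe, at 6.18 in ctrl, was nearer to the ch+ median of 5.62 than to the ch– median of 7.41, and Cxcl12, at 15.19, was below the medians of both groups.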

How the data were processed

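RNA was sequenced from Nes^low mesenchymal cells of mouse bone marrow. Per the submitters' processing notes, reads were aligned to mm10 with STAR 2.5.1b and counted per gene with RSEM 1.2.29, and normalized with DESeq2 1.10.1. The authors deposited regularized log2 values (−2.33 to 22.44) of counts divided by size factors. The paper's methods name a log10 scale, which the highest value cannot be on, so the values were read as log2. Counts and depth are not used here.

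From these values, genes with a mean of at least 3.32 (about 10 normalized counts) over 21 libraries were tested, 12980 of 26852. Gene IDs were matched to an annotation for 99.4%. Tests used limma 3.58.1 (R 4.3.3, tables read with version 1.17.8 of data.table) with a mean-variance trend, two-sided, on 12 libraries with cell line and marker as terms. Effects within each line and their difference came from 4 groups of 3 libraries. A gene was called at a Benjamini-Hochberg adjusted p under 0.1. The code was tested on simulated data. Figures were made with Python 3.11.15 and matplotlib 3.10.9.

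Named genes are the 10 with the largest fold change in each direction among called genes whose groups do not overlap, up to 5 called genes per list beside defining markers, and 2 per list without calls. Egr1, Fos, Jun, Matn4, S100b, Pmp22 and Kitl were named after their values were seen. Members and the 42 lists were chosen with earlier results of these data known. Alternatives were other models, filters, scalings, variance settings, thresholds and covariates, and leaving out each library. The 3 libraries left out together, and blocks of ch+ and ch– pairs assumed from the order of library numbers, were chosen after seeing the data. Some genes chosen by the rule are not reported here.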

Additional observations from a re-analysis of the deposited data

Results flagged for a closer look

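A single library stood far from the other 5 of its group for 28 of 348 combinations of gene and group, none of 84 combinations of list and group and 1 of 6 combinations of library measure and group, where chance alone sets apart about 1 in 20 groups. The range of the other 5 libraries is in brackets. In ch+ these were F2r 5.36 in replicate 538 (6.40 to 6.89), Casq2 4.54 in replicate 525 (3.36 to 3.74), Fgf1 4.95 in replicate 538 (6.63 to 7.33) and Hs3st3b1 5.47 in replicate 524 (3.13 to 3.43). Further ch+ values were Csf1 10.77 in replicate 541 (11.16 to 11.20), Nes 6.61 in replicate 541 (7.28 to 7.65), Kdm5d 2.35 in replicate 538 (1.49 to 1.69), Ihh 2.21 in replicate 538 (1.81 to 1.95) and Myf5 2.94 in replicate 523 (2.30 to 2.40). The last of ch+ were Tnmd 3.85 in replicate 523 (2.57 to 2.77), Scx 3.05 in replicate 525 (2.17 to 2.47), Ms4a2 −1.52 in replicate 524 (−1.75 to −1.74) and Cd3e 1.54 in replicate 525 (0.62 to 0.63).

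In ch– they were Htra4 9.06 in replicate 528 (7.54 to 8.06), Cilp 6.55 in replicate 529 (7.60 to 8.07), Dpt 6.98 in replicate 529 (7.75 to 8.06), Fgfr4 6.79 in replicate 543 (5.13 to 5.67) and Mmp9 6.03 in replicate 528 (6.81 to 7.20). More ch– values were L1cam 5.46 in replicate 543 (6.77 to 7.45), Pln 6.99 in replicate 546 (7.71 to 8.05), Igf1 10.27 in replicate 528 (10.96 to 11.30), Rgs4 8.83 in replicate 546 (9.64 to 9.80), Kitl 9.71 in replicate 528 (10.60 to 10.99) and Inhba 7.01 in replicate 544 (7.72 to 7.98). The last of ch– were Atp5a1 10.91 in replicate 543 (10.25 to 10.48), Adgre1 0.43 in replicate 546 (0.33 to 0.34), Ly6g 2.24 in replicate 546 (1.72 to 1.89) and Cpa3 −0.49 in replicate 527 (−0.89 to −0.87). The summed total of ch+ replicate 525 was 11.21, against 12.35 to 12.65 in the others, in units of 1e6 normalized counts.

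The effect of the label on Gm26582 differed between the lines by −3.72 (ML1 minus HL60), the only such difference called. None of these departures was weighed against a cause.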

How the results depend on the processing

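Of 126 named genes that were called, 110 kept their direction and their call under all 16 alternatives run on single genes, 16 lost the call under at least 1 and none reversed. Those alternatives were no cell line term, all 21 libraries in the fit, quantile normalization, equal library totals and leaving out each of 12 libraries. The other filters, variance settings, thresholds and covariates were run on counts of calls only, and with Xist as a term 290 of the 912 calls were kept. The Xist term overlaps in part with the marker. Of 29 named genes not called, 8 gained a call, among them mt-Co1 after quantile normalization (−0.7108, adjusted p = 0.00167). The both-lines count of 912 lay between 631 (no mean-variance trend) and 1158 (equal library totals) for most alternatives. It was 579 with no filter, where 26852 genes were tested, 394 with a fold of at least 1 log2 unit as a second condition, 307 with Xist as a term, and 712 without 3 libraries chosen after seeing the data. Leaving out 1 library gave 761 to 907. HL60 (421) gave 233 with no filter and 254 (without replicate 528) to 397 (without 529), and ML1 (445) gave 182 with no filter and 303 to 443. The interaction (1) gave 0 with no filter and 0 to 1 without 1 library. Equal totals raised the higher share from 52.6% to 77.4% (HL60 58.7% to 73.5%, ML1 52.1% to 75.9%).

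Among genes not called, the direction reversed with equal totals for mt-Co1 (0.0786), mt-Cytb (0.0788), Xist (0.0158), Nes (0.1285) and Mpo (0.0219), and with quantile normalization for Xist (0.0589). Without 1 library the log2 fold change crossed 0 for mt-Co1 (−0.1766 to 0.0104), Hbb-bs (−0.0645 to 0.2854), Hba-a1 (−0.1698 to 0.2266), Atp5a1 (−0.0634 to 0.0829), Nes (−0.1087 to 0.108), Ppbp (−0.5394 to 0.087), Ttn (−0.003 to 0.3913), Pi16 (−0.0969 to 0.4837) and Mpo (−0.3026 to 0.0628). Apart from the alternatives that test more genes or use fewer libraries, the cause was not tested. The labels pair no libraries. With pairs assumed from the order of library numbers as blocks, an alternative chosen after seeing the data, 945 genes were called and 870 of the 912 calls were kept. With 6 libraries per group and without counts or the depth of each library, small differences in weakly expressed genes cannot be resolved.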

Other observations

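The genes below were chosen after their values had been seen, from those called over both lines, and the alternatives were not run for them. Fn1, the matrix protein fibronectin, was higher in ch+ (2.59 ± 0.12, adjusted p = 4.68e-15), at 17.23 to 18.20 against 14.76 to 15.20. These genes were higher as well: Hbegf (2.47 ± 0.17, adjusted p = 2.46e-11), Ereg (1.72 ± 0.26, adjusted p = 4.4e-05), Egfr (1.47 ± 0.14, adjusted p = 2.89e-08) and Met (2.41 ± 0.38, adjusted p = 8.15e-05). Has1, a hyaluronan synthase, had a log2 fold change of 2.28 ± 0.31, adjusted p = 8.34e-06, and Cd248, endosialin, of 1.53 ± 0.20, adjusted p = 3.25e-06.

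Genes that were lower include Kcnk3 (−2.82 ± 0.33, adjusted p = 6.51e-07), Kcna1 (−2.41 ± 0.34, adjusted p = 1.38e-05), Kcna2 (−2.53 ± 0.35, adjusted p = 1.32e-05) and Kcna6 (−2.52 ± 0.41, adjusted p = 0.000122). Atp1b2, a subunit of the sodium pump, was lower too (−2.16 ± 0.19, adjusted p = 5.92e-09). Serpina1a (−2.63 ± 0.42, adjusted p = 8e-05) is a near copy of Serpina1b (−3.25 ± 0.34, adjusted p = 9.92e-08), and reads can be split between the 2 genes.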
